A study of Rattus norvegicus with 8 samples.

Results

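The mitochondrial ribosomal protein genes were followed here in the medial thalamus of rats conditioned with tracheal occlusions. Members were all genes that the array annotation named Mrpl or Mrps followed by a number and an optional letter. The rule took 61 genes, covered by 71 of the 41012 distinct probes on the array. Of these, 61 genes with 70 probes were called well above background on at least 4 of 8 arrays, and 60 genes kept a value, 38 named Mrpl and 22 named Mrps. The measured set was thus 60 of 13717 named genes and 69 of 27161 probes that passed the same filter. Each gene was represented by its brightest probe.

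Both groups were male Sprague-Dawley rats, and every sample is labelled as from a conscious animal. In the occlusion group, 4 animals had their trachea occluded in daily sessions over 10 days, each occlusion lasting 3 to 10 breaths with about 30 s of recovery between occlusions. The 4 control animals were surgical controls that received no occlusions. All were killed with an overdose of anaesthetic within 10 min of the final session, and 1 µg of total RNA per animal was labelled with Cy3 and hybridised to 1 array. The design text counts 4 animals per group, so arrays were taken as separate animals. P-values then measure the spread between these arrays, in which differences between animals cannot be told apart from those of labelling, array or slide.

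Mitochondria carry ribosomes of their own, which translate the few respiratory chain subunits encoded in mitochondrial DNA. Their RNA is transcribed inside the organelle, whereas all of their proteins are encoded in the nucleus, made in the cytosol and imported. Proteins named Mrpl belong to the large subunit, where peptide bonds form, and most proteins named Mrps belong to the small subunit, which decodes the messenger RNA. Some have counterparts in bacterial ribosomes and others are found only in mitochondria. Neurons depend on the respiratory chain for much of their ATP.

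The arrays lay on 2 slides, each scanned at its own time and holding 2 arrays of each group, so slide and group were balanced. In a limma fit with slide added, 905 of 13717 named genes differed between slides at an adjusted p below 0.05. Of the 60 members 0 did. At most 71.6% of an array's spots were called well above background, and saturated spots made up 1.05% to 1.55%. Several lists of cell type markers leaned to one side between the groups, though no marker reached an adjusted limma p below 0.05 (smallest 0.403). All 13 measured markers of thalamic relay neurons were higher on the occlusion arrays (median log2 difference 0.64), with a mean scaled log2 signal of 0.65 to 1.22 against -0.34 to 0.67, and 12 of the 13 were well above background on all 8 arrays. Of 10 markers of inhibitory neurons, 9 were lower (median -1.61), with means of -2.97 to -0.22 against -1.03 to 1.64. Both lists differed more on slide 2. The relay median was 0.27 within slide 1 and 1.15 within slide 2, and the inhibitory median -0.47 and -2.84. Of 12 oligodendrocyte markers, 10 were lower (median -0.36), with means of 1.94 to 2.22 against 2.28 to 2.98. Of 9 pan-neuronal markers, 7 were higher (median 0.09), with means of 3.24 to 3.55 against 2.58 to 3.34. Astrocyte, microglial and endothelial markers had medians of 0.02, 0.02 and 0.15, in that order. Of 7 measured markers of choroid plexus and ependyma, 6 were lower (median -0.59). In 2 of the 7 (28.6%) the values of the groups did not overlap, against 7.03% of named genes. Ttr, at 1.83, was higher on every occlusion array than on every control, and Clic6, at -0.91, was lower. The part of tissue composition in any difference given here was not tested, and in bulk tissue fewer cells of a type cannot be told apart from less RNA per cell.

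Each value rests on a 60-base probe. The probes of the 2 genes whose groups did not overlap are shown because the findings turn on them, all bases in lower case because no part is singled out. Positions are those of the array annotation in the rat assembly rn3. Which exon or untranslated region they fall in was not analysed here.
Mrps12, chr1:83923375-83923434 (- strand): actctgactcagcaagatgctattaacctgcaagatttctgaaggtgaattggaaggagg
Mrps18a, chr9:10416574-10416633 (- strand): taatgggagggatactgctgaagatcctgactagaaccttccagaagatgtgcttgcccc
The 2 probes named Mrpl34 are shown because they read opposite strands of one place. The capitals mark the 58 bases that each probe shares with the reverse complement of the other.
Mrpl34 probe 1, chr16:18636746-18636805 (+ strand): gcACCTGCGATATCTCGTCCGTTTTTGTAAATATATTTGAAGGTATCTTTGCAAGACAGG
Mrpl34 probe 2, chr16:18636748-18636807 (- strand): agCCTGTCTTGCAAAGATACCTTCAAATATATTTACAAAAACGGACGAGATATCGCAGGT
The first Mrpl34 probe was well above background on all 8 arrays, at a scaled log2 signal of 3.45, 3.44, 3.47 and 3.25 with occlusion and 3.17, 3.31, 3.22 and 3.28 in controls. The second, on the opposite strand, lay between -7.37 and -5.28 and was well above background on 1 array, occlusion 3. It was the only probe of the family that missed the filter. Mrps2, well above background on 7 of 8 arrays, was the only measured member that fell short of all 8.

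No mitochondrial ribosomal protein gene passed the test between occlusion and control animals. The count at an adjusted p below 0.05 (limma's moderated test, Benjamini-Hochberg adjustment over all 27161 probes) was 0 of 60 members, and it was 0.0% of all probes. At an unadjusted limma p below 0.05 there were 3009 probes, which is 11.1% of probes and 10.8% of named genes. Among the members 2 reached that level, which is 3.33% of them, and in the same 2 genes the groups did not overlap, against 7.03% of named genes. Both, Mrps12 and Mrps18a, were higher with occlusion. Over all named genes, 5.8% were higher at that p, 3.81% were higher without overlap and 3.22% were lower without overlap. Below, a difference is the mean scaled log2 signal of the 4 occlusion arrays minus that of the 4 controls.

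The differences of the family were small. Their median was 0.04, against 0.01 over all named genes, and they ran from -0.59 for Mrpl2 to 0.85 for Mrps2. Of the 60 genes, 42 were higher and 18 lower, while 52.7% of named genes were higher. The median size of a difference, whatever its sign, was 0.11 in the family and 0.16 over all named genes. The family was also measured with less scatter, with a median within-group SD of 0.16 against 0.23. For 50 of 60 members (83.3%) the 95% interval of the difference stayed within 1.5-fold in either direction, compared with 53.3% of named genes. For 58 members it stayed within 2-fold. Neither trait was particular to the family. In the lists of related mitochondrial genes given below, the median SD ran from 0.14 to 0.16 and the share within 1.5-fold from 68.8% to 100%. In the family 59 of 60 genes were well above background on all 8 arrays, against 12498 of 13717 named genes. No member was saturated on any array, so none was limited at the bright end.

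**Figure D1:**
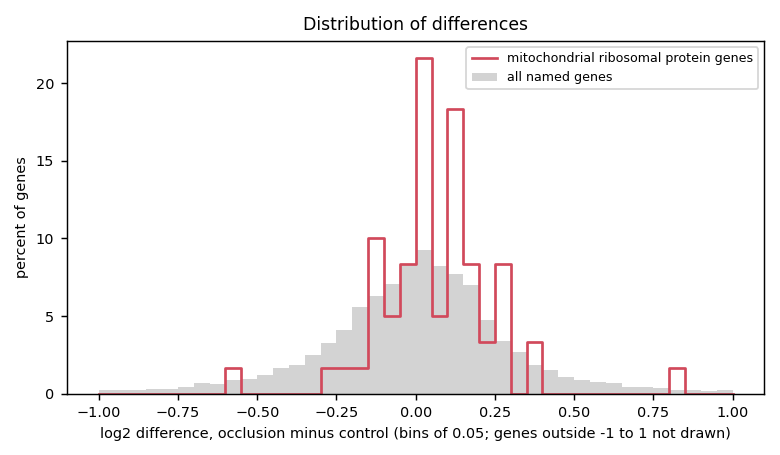
Percent of genes (vertical axis) by log2 difference between occlusion and control (horizontal axis, bins of 0.05), for 13717 named genes (grey bars) and 60 mitochondrial ribosomal protein genes (red line). The family lies close around 0, with a median of 0.04, and has no gene beyond -0.59 or 0.85.

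The level of the family as a whole overlapped between the groups. Relative to each gene's own mean over the arrays, the median member stood at 0.04, 0.09, 0.13 and -0.10 on occlusion arrays 1 to 4. On control arrays 1 to 4 it stood at -0.02, 0.03, -0.18 and 0.05. The groups overlapped, with occlusion 4 low among the occlusion arrays and control 3 lowest of all. The same quantity over all named genes ran from -0.06 to 0.08. It was lowest on the same arrays, at -0.056 on occlusion 4 and -0.053 on control 3. On control 3 only 8 of 60 members lay above their own mean, and on occlusion 4 it was 17, against 48 on occlusion 2. Control 3 also had the lowest mean of relay neuron markers, -0.34, and of pan-neuronal markers, 2.58, and the highest mean of inhibitory markers, 1.64. Occlusion 4 did not share this pattern, with means of 0.80, 3.30 and -1.78 for the same lists. The part of these markers in the family's level was not tested.

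**Figure D2:**
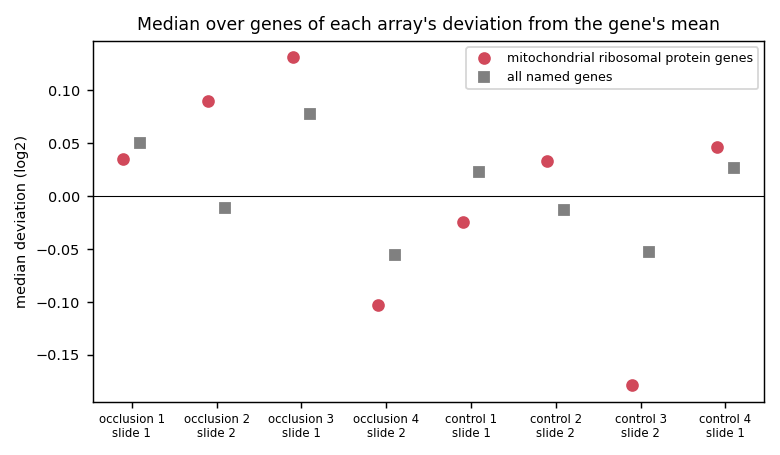
Median deviation of genes from their own mean over the 8 arrays (vertical axis, log2) for each array (horizontal axis), for 60 mitochondrial ribosomal protein genes (red circles) and all named genes (grey squares). Control 3, at -0.18, and occlusion 4, at -0.10, are the 2 lowest arrays of the family, and the groups overlap. The same arrays are lowest over all named genes, at -0.053 and -0.056.

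The split into 42 higher and 18 lower genes was not the same on both slides. Within slide 1, 42 members were higher and the median was 0.09. Within slide 2, 30 were higher and 30 lower, with a median of -0.0002. All named genes were split 7717 higher to 5978 lower on slide 1 and 6594 to 7101 on slide 2. The sign agreed between slides for 40 of 60 members and for 8452 of the 13717 named genes. Without occlusion 3 the count of higher members was 32, and without occlusion 4 it was 48.

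**Figure D3:**
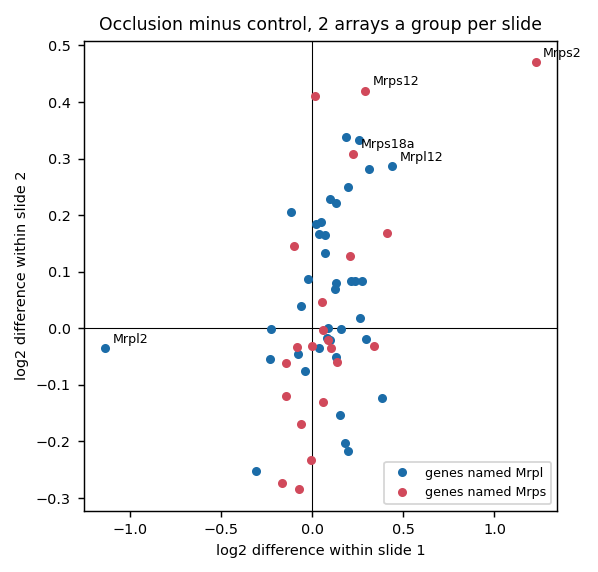
Difference between occlusion and control within slide 1 (horizontal axis, log2) and within slide 2 (vertical axis, log2) for each of 60 members, blue for Mrpl and red for Mrps names, from 2 arrays a group per slide. Mrps12 and Mrps18a are positive on both axes, Mrpl2 is far below 0 on slide 1 alone, and 40 points have the same sign on both slides.

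Among the proteins named for the large subunit, 29 of 38 genes were higher and 9 lower, with a median of 0.10. None had groups that did not overlap. Mrpl12 forms the stalk that meets the translation factors. Its signal was 4.24, 4.23, 4.28 and 4.12 with occlusion and 3.49, 4.09, 3.69 and 4.15 in controls. The controls fell into a low pair, 1 and 3, and a pair next to the occlusion values, and control 4 lay above occlusion 4. The difference was 0.36 (SE 0.16, adjusted limma p 0.457, n = 4 a group), and 0.24 without control 1.

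Mrpl4, another large subunit protein with a bacterial counterpart, stood at 2.23, 2.05, 1.89 and 2.31 with occlusion and 1.84, 1.95, 1.91 and 1.88 in controls. Of the occlusion arrays, 3 lay above every control and occlusion 3 lay among them. The difference was 0.22 (SE 0.12, adjusted limma p 0.502). Mrpl34 differed by 0.16 (SE 0.10), again with 3 occlusion arrays above every control and occlusion 4 among them. Mrpl14, which lies at the face towards the small subunit, differed by 0.18 (SE 0.11). Mrpl43, Mrpl42 and Mrpl52, with no bacterial counterpart, differed by 0.26, 0.30 and 0.29 with SEs of 0.15, 0.19 and 0.23, and in each the groups overlapped.

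Mrpl2, which lies near the site of peptide bond formation, had the lowest value of the family. Its signal was -3.05, -1.23, -1.81 and -1.47 with occlusion and -1.44, -1.21, -1.42 and -1.15 in controls. Occlusion 1 stood far below all other arrays and the remaining arrays overlapped. The difference of -0.59 (SE 0.36, adjusted limma p 0.560) became -0.20 without occlusion 1, and it was -1.14 within slide 1 and -0.04 within slide 2.

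Mrpl18, a protein of the central protuberance, stood at 2.77, 3.14, 2.79 and 2.53 with occlusion and 3.00, 3.28, 2.90 and 3.17 in controls. Of the occlusion arrays, 3 lay below every control and occlusion 2 did not. The difference was -0.28 (SE 0.15, adjusted limma p 0.514). A second Mrpl18 probe, with a value on 6 arrays, gave -0.09 (SE 0.11). On those arrays every occlusion value of this probe lay below every control value. When outlier-flagged spots were kept, control 3, at 2.68, lay among the occlusion values and the groups overlapped. Mrpl50 was at -0.14 (SE 0.13), Mrpl15 at -0.11 (SE 0.11) and Mrpl13 at -0.06 (SE 0.15), all within their scatter.

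Among genes named Mrps, 13 of 22 were higher and 9 lower, with a median of 0.03. Mrps12, the protein of the decoding centre, had a signal of 2.99, 2.94, 2.82 and 2.93 with occlusion and 2.55, 2.65, 2.38 and 2.67 in controls. Every occlusion array lay above every control. The means were 2.92 ± 0.07 and 2.56 ± 0.13 (SD, n = 4 each), a difference of 0.36 or 1.28-fold (SE 0.10, 95% interval 0.12 to 0.60, adjusted limma p 0.403). It was 0.29 within slide 1 and 0.42 within slide 2, and 0.30 to 0.39 when any 1 array was left out.

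Mrps18a is one of the mammalian relatives of a single bacterial protein and, despite its name, is found in the large subunit. Its signal was 3.29, 3.30, 3.42 and 3.38 with occlusion and 3.03, 2.95, 3.12 and 3.22 in controls. Again every occlusion array lay above every control. The means were 3.35 ± 0.06 and 3.08 ± 0.12 (SD, n = 4 each), a difference of 0.27 (SE 0.10, 95% interval 0.04 to 0.50, adjusted limma p 0.414). It was 0.23 within slide 1 and 0.31 within slide 2. The relatives Mrps18b and Mrps18c differed by 0.15 (SE 0.19) and -0.05 (SE 0.14), with overlapping groups, the latter over 7 arrays because an outlier spot was left out.

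**Figure D4:**
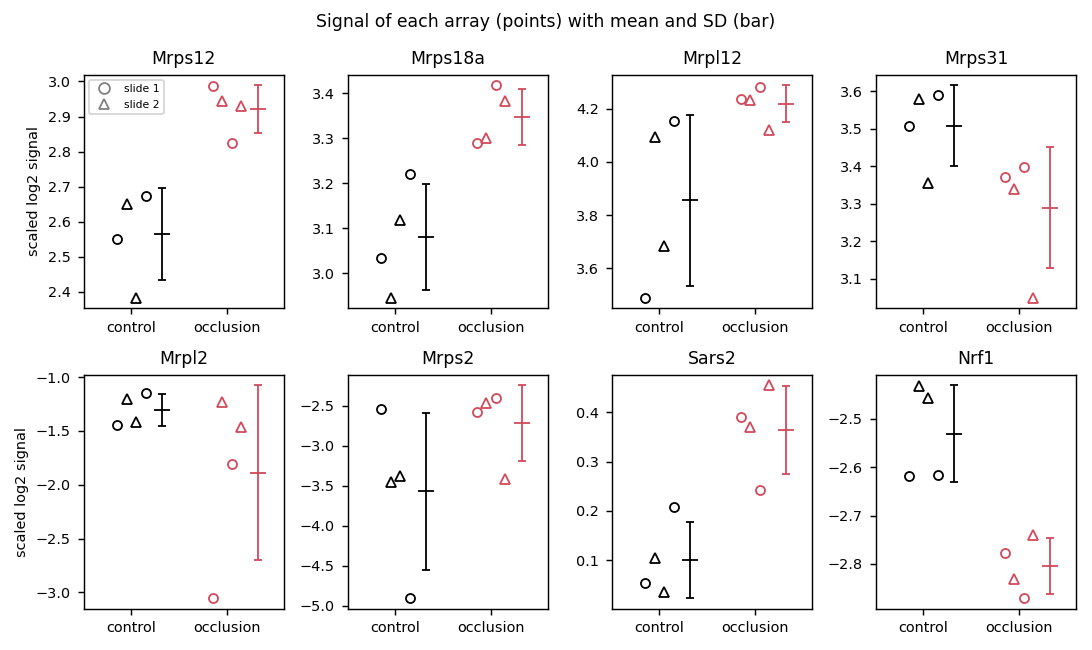
Scaled log2 signal (vertical axes) of each control and occlusion array (horizontal axis) for 6 members and for Sars2 and Nrf1, circles on slide 1 and triangles on slide 2, with the mean and SD of each group as bars. The groups do not overlap for Mrps12, Mrps18a and Sars2, which were higher with occlusion, or for Nrf1, which was lower, while occlusion 1 sets the mean of Mrpl2 and control 4 that of Mrps2.

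Mrps2, a small subunit protein with a bacterial counterpart, had the highest value and the widest scatter of the family. Its signal was -2.58, -2.47, -2.41 and -3.42 with occlusion and -2.54, -3.45, -3.38 and -4.90 in controls. Control 1 lay among the high occlusion arrays, occlusion 4 lay among the controls, and control 4, where the probe was not well above background, lay far below. The difference of 0.85 (SE 0.47, adjusted limma p 0.520) became 0.40 without control 4 and 1.19 without control 1. Mrps7 and Mrps10, both with bacterial counterparts, differed by 0.29 (SE 0.18) and 0.21 (SE 0.16). The first became 0.14 without occlusion 1 and the second 0.07 without control 3.

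On the lower side, Mrps31, a small subunit protein without a bacterial counterpart, stood at 3.37, 3.34, 3.40 and 3.05 with occlusion and 3.51, 3.58, 3.36 and 3.59 in controls. Control 3 lay among the occlusion arrays and the other 3 controls above them. The difference was -0.22 (SE 0.12, adjusted limma p 0.510). Mrps30, which like Mrps18a is found in the large subunit, was at -0.18 (SE 0.14). Mrps17, Mrps9 and Mrps23 were at -0.13, -0.12 and -0.10, and Mrps35 at -0.06, all with overlapping groups. Mrps36, renamed Kgd4 in RefSeq because its product belongs to the 2-oxoglutarate dehydrogenase complex, was at -0.12 (SE 0.12).

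**Figure D5:**
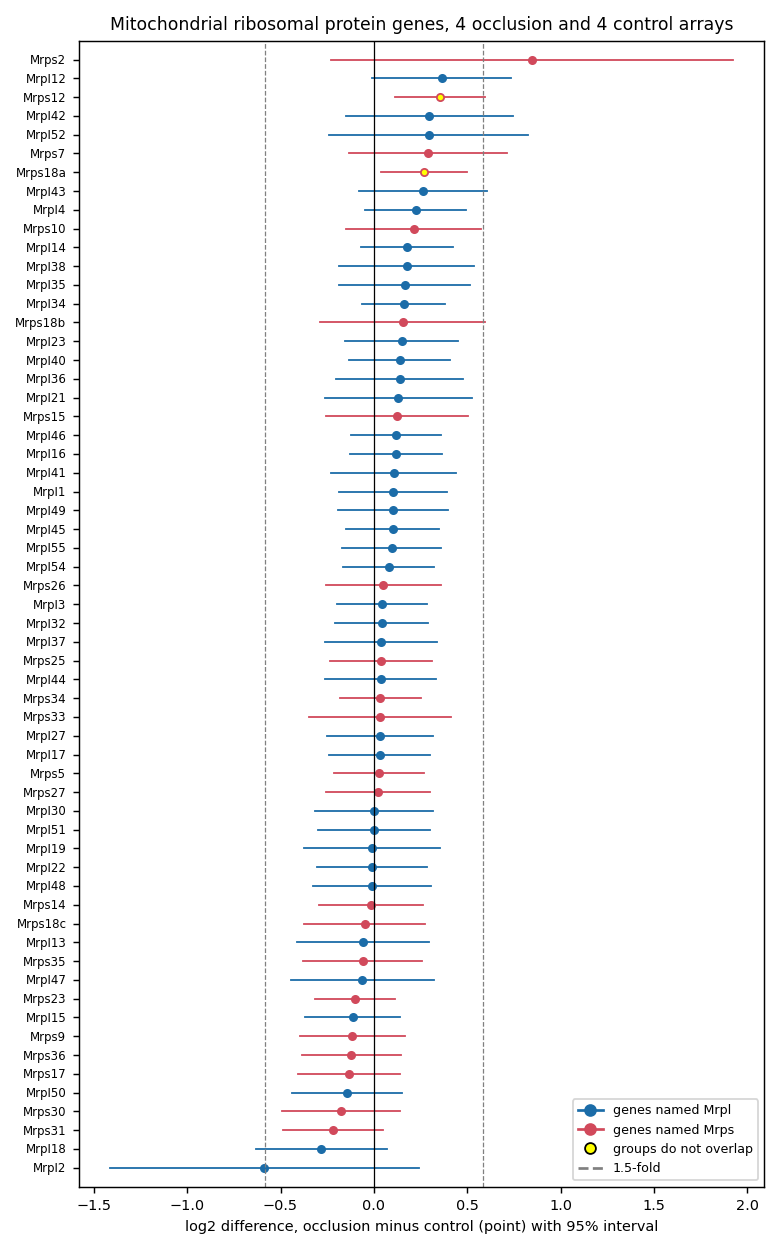
Log2 difference between occlusion and control (horizontal axis, point) with its 95% interval (line) for the 60 members (vertical axis), blue for Mrpl and red for Mrps names, with yellow points where the groups do not overlap and dashed lines at 1.5-fold. The intervals of Mrps12 and Mrps18a are the ones that leave 0, and those of Mrps2 and Mrpl2 are the widest.

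Of 21 Mrpl genes with a bacterial counterpart 15 were higher (median 0.04), of 12 such Mrps genes 8 were higher (median 0.14), and of the 27 remaining members 19 were higher (median 0.04). Repeated measurement within a gene gave the same sign for 7 of 8 genes with more than 1 kept probe. The exception was Mrps14, whose 3 probes ran from -0.02 to 0.03. Mrpl53 had a value on no array because its spot carried an outlier flag on all 8, and with such spots kept it stood at -0.13 (SE 0.12). Mitochondrial ribosomal protein genes that the array lists under other spellings or names were mrpl9 at 0.02, mrpl11 at 0.15, mrpl24 at 0.11, Mrps11 at 0.21 and Mrpl58, a peptide release factor built into the large subunit, at 0.17. In all 5 the groups overlapped.

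The rest of the mitochondrial translation system also had 0 genes at an adjusted limma p below 0.05. Of 4 ribosome subunits with other names, 4 were higher (median 0.12). They were Mrpl58 at 0.17, Gadd45gip1 at 0.13, Dap3 at 0.10 and Aurkaip1 at 0.08. Of 10 translation factors, 8 were higher (median 0.11), among them Mtrf1l, a release factor, at 0.27 (SE 0.12) and Mrrf, the ribosome recycling factor, at 0.20 (SE 0.12). The initiation factor Mtif2 was at -0.25 (SE 0.15) and the elongation factor Gfm1 at -0.20 (SE 0.11). Of 18 genes for assembly of the ribosome, 15 were higher (median 0.09), including Mterf4 at 0.28 (SE 0.14) and the helicase Dhx30 at 0.20 (SE 0.12), while Mterf3 was at -0.21 and the ribosomal RNA methyltransferase Mrm2 at -0.30. No gene of these 3 lists had groups that did not overlap.

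Of 18 aminoacyl-tRNA synthetases that act in mitochondria, 9 were higher and 9 lower (median -0.004). In 2 of them (11.1%) the groups did not overlap, against 7.03% of named genes. Sars2, which charges the serine tRNAs, stood at 0.39, 0.37, 0.24 and 0.45 with occlusion and 0.05, 0.10, 0.04 and 0.21 in controls. All occlusion arrays were above all controls, by 0.26 on average (SE 0.10, adjusted limma p 0.410), or 0.18 within slide 1 and 0.34 within slide 2. Fars2, for phenylalanine, was at 0.21 (SE 0.10), also without overlap, and became 0.14 when the array that mattered most was left out. Mars2 and Nars2 were at -0.54 (SE 0.23) and -0.24 (SE 0.12).

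Of 16 genes for expression of mitochondrial DNA and for its control, 9 were higher (median 0.06). The 2 without overlap (12.5%, against 7.03% of named genes) were lower. Tefm, the elongation factor of mitochondrial transcription, stood at -1.23, -1.41, -1.36 and -1.23 with occlusion and -0.95, -0.88, -1.03 and -0.82 in controls. Every occlusion array lay below every control, by -0.39 (SE 0.10, adjusted limma p 0.403). Nrf1, a transcription factor known for binding promoters of nuclear genes with mitochondrial products, stood at -2.78, -2.83, -2.87 and -2.74 against -2.62, -2.43, -2.46 and -2.62. Here too every occlusion array lay below every control, by -0.27 (SE 0.10, adjusted limma p 0.403). Ppargc1b, a coactivator, was at 0.37 (SE 0.18) and Polrmt, the mitochondrial RNA polymerase, at 0.15 (SE 0.11). Of 21 genes taken as a gauge of mitochondrial content, 16 were higher (median 0.09), with differences from -0.13 for Hspa9 to 0.28 for Vdac1. By moderated t, Immt at 0.27 and Timm23 at 0.18 stood highest and Hspe1 at -0.12 and Hspa9 lowest. In this list 4 genes were saturated on at least 1 array and the groups overlapped in all 21.

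Promoter sequence, which the choice of members did not use, was searched for 3 short motifs. RefSeq windows from 250 bases before to 50 after the gene start (assembly GRCr8) were matched by symbol for 49 of 60 members. Both strands were searched for exact letters, and motifs may overlap. The letters of the NRF-1 and YY1 motifs are the capitals in the sequences printed after this comparison, and in YY1 the third letter may be any base. The NRF-1 motif was in 4 windows (8.16%), against 1.71% of windows of the named genes measured here and 0.954% of all windows. The ETS motif CCGGAAG was in 15 (30.6%), against 16.1% and 9.63%. The YY1 motif was in 9 (18.4%), against 2.56% and 1.22%. At least one of these motifs was in 24 windows (49.0%), against 19.4% and 11.3%.

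All 9 YY1 matches lay on the strand of the gene and began between base 1 and base 31 from the annotated start. They are shown, capitals marking the motif, because they sit at nearly one place in each window. The motif holds the letters ATG, and whether these are the first codon was not tested.
Mrpl46, chr1:142116987-142117015 (- strand): gaagacggaAAGATGGCGGCgcccatagg
Mrps27, chr2:32474224-32474252 (+ strand): gtacgctccAAGATGGCGGCccccatggt
Mrps30, chr2:52195867-52195895 (- strand): cggaggacaAAGATGGCGGCtgccaggta
Mrpl50, chr5:68668042-68668070 (- strand): agcttgtcgAAGATGGCGGCgctgtgtgt
Mrpl37, chr5:127074942-127074970 (- strand): gcccgggcaAAGATGGCGGCgtccaggta
Mrps10, chr9:21122404-21122432 (- strand): cagggcaccAAGATGGCGGCgcgcgcagc
Mrps18a, chr9:22367361-22367389 (- strand): tgtgttcccAAGATGGCGGCcctcagggc
Mrps14, chr13:74962608-74962636 (+ strand): taggcagacAACATGGCGGCgtccttgct
Mrpl1, chr14:13663488-13663516 (- strand): ggaacagtcAACATGGCGGCggccgcaag
The 4 NRF-1 matches lay upstream, beginning 20 to 132 bases before the start. The motif is its own reverse complement, so no strand is given to it.
Mrpl17, chr1:169575736-169575763 (- strand): ggctctgatGCGCATGCGCaagcacccc
Mrpl44, chr9:88554909-88554936 (+ strand): gaagcacttGCGCATGCGCactatgcta
Mrpl32, chr17:55260580-55260607 (+ strand): ttgacctgtGCGCATGCGCagggaacct
Mrps18b, chr20:2842977-2843004 (+ strand): ccttgtccgGCGCATGCGCagtcgttct
Members with any of the motifs had a median difference of 0.04 and members without one 0.08. Taken singly, the medians with and without the motif were 0.05 and 0.04 for ETS, 0.04 and 0.04 for NRF-1, and 0.04 and 0.04 for YY1. The genes of the factors were at -0.27 for Nrf1, 0.04 for Yy1 and -0.06 for Gabpa, an ETS factor. A second Gabpa probe gave -1.50, so its probes disagreed in size. The other 2 Yy1 probes gave -0.06 and 0.05, so those of Yy1 disagreed in sign.

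Of the 2 members without overlap, the Mrps18a window held an ETS and a YY1 motif, in capitals.
Mrps18a, chr9:22367331-22367630 (- strand): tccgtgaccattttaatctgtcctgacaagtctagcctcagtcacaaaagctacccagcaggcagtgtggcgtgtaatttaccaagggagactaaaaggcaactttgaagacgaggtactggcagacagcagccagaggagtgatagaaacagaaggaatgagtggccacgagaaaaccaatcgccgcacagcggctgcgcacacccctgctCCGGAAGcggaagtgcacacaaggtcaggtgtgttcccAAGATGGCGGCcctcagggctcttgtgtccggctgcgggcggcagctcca
The Mrps12 window was not among those matched. Mrps12 lies next to Sars2 in GRCr8, and their probes in rn3 read opposite strands. The window of Sars2 held an ETS motif on the opposite strand, in capitals.
Sars2, chr1:93156264-93156563 (+ strand): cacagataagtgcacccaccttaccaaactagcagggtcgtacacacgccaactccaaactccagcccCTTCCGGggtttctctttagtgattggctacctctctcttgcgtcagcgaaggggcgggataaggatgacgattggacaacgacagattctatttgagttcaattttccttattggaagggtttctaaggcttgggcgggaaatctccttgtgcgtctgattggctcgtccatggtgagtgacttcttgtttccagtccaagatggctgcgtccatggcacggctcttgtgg
Both genes of this pair had higher signals on every occlusion array than on every control. Neighbours within 1000 bases of a member gave 34 pairs with values for both genes, around 29 members, and in 22 pairs both differences had the same sign. The share of same-sign pairs among neighbours of other genes was not determined. Of the members 70% were higher, and of named genes 52.7%. In these 34 pairs 2 neighbours had groups that did not overlap, against 7.03% of named genes. Apart from Sars2 this was Mitd1 beside Mrpl30, which was lower at -0.16 while Mrpl30 was at 0.002. Rsph9, a cilium gene beside Mrps18a, was at -0.50 (SE 0.24), opposite in sign to Mrps18a.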

How the data were processed

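Per the file headers, the authors scanned each array in 1 channel with Agilent Feature Extraction 9.5.1.1 and deposited a processed intensity per spot, background-subtracted and linear, with no scaling between arrays. The design text names a reference design, but no second channel was found, so the arrays were treated as 1-colour. Values exclude controls and outlier-flagged spots. Each array's log2 75th percentile (1439 to 2216 before log2) was subtracted, spots of a probe were averaged, and probes well above background on at least 4 arrays were fitted with limma 3.58.1 in R 4.3.3, occlusion against control, without covariates. On simulated data the fit recovered 50 of 100 changes of log2 size 1 and 92 of 100 of size 2, with 5 false calls. The simulated noise was independent between probes, and probes were drawn from all those kept. It therefore gives no recovery rate for differences as small as most in the family. Text names the members with the 12 highest and 12 lowest moderated t, those without overlap or below an unadjusted p of 0.05, those whose probes disagree in sign, and in each companion list the 2 highest and 2 lowest. Other genes were chosen after their values were seen. Members and lists were chosen with earlier results of these data known. Scaling, background correction, filter, variance model, slide, replicate number and each array were varied. The number of arrays limits the precision.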

Additional observations from a re-analysis of the deposited data

Results flagged for a closer look

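In 3 members, 1 array stood far from the other 3 of its group, among 50 groups of 4 arrays that were examined. By chance about 1 in 20 such groups would be picked. Mrps14 on occlusion 4 was at 2.86, with the other occlusion arrays at 3.20 to 3.25. Mrpl34 on occlusion 4 was at 3.25, with the others at 3.44 to 3.47. Mrpl15 on control 2 was at 1.42, with the other controls at 1.32 to 1.33.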

How the results depend on the processing

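No member passed an adjusted limma p of 0.05 under any alternative run, and the adjusted p of the named members ran from 0.207 to 1. Over all probes the count was 0 in every alternative but background correction by normexp, where it was 1, and it stayed at 0 when any 1 array was left out. The count of higher members ran from 30 (slide 2 alone) to 48, and from 32 to 48 over the arrays left out, where the median ran from 0.01 to 0.12. Members at an unadjusted p below 0.05 numbered from 0 (slide 2 alone) to 6 (array weights). Mrps14 turned positive when arrays were scaled to their median (0.0094), with normexp (0.0034) and as the mean of its probes (0.0032), and ran from -0.054 to 0.076 over the arrays left out. Mrpl13 ran from -0.158 to 0.047 there. The cause of these changes was not tested. Of the other members with the 12 highest or 12 lowest moderated t none changed sign. Members named elsewhere in the text could do so. Within slide 2 Mrps18b was at -0.03 and Mrpl30 at -0.04, and within slide 1 Mrps18c was at 0.06. Same-numbered arrays correlated at 0.35, 0.51, -0.07 and -0.29 in their deviations. Occlusion 1 and 2 correlated best with the control of their own number, and occlusion 3 and 4 did not. The pairs numbered 1 and 2 shared a slide and those numbered 3 and 4 did not, so pairing cannot be told apart from slide. With the replicate number as a block, 0 probes passed and 42 members were higher. With slide as a block, 0 probes passed and the smallest adjusted p was 0.243. Adding members by their RefSeq symbol, chosen after the data were seen, gave 47 higher, in a set larger than the 60 members. The dim probe of Mrps2 had a wide interval (SE 0.47). Those of Mrps10 and Mrpl43, also dim, had SEs of 0.16 and 0.15, beside a median of 0.13 in the family. Under normexp the differences of Mrps2, Mrps10, Mrpl43 and Mrps7 were smaller than in the main fit, at 0.51, 0.18, 0.14 and 0.14.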
